A study of Mus musculus with 24 samples.

Results

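The SWI/SNF chromatin remodelling complex was followed here through the transcripts of 10 of its subunits in embryonic mouse liver. The 10 genes were chosen by name from the 25361 genes of the deposited table: *Smarca4* (the gene of BRG1), *Smarca2* (the gene of BRM), *Smarcb1*, *Smarcc1*, *Smarcc2*, *Smarcd1*, *Smarcd2*, *Arid1a*, *Arid1b* and *Pbrm1*. All 10 were in the table, and all 10 entered every test. A second list held 21 other subunits of the same complexes, of which 20 passed the filter on low values in LSECs and 19 in non-EC cells. The question that the design puts to these genes is how far subunit and paralog levels differ between cell fractions, and whether paralogs such as *Smarca2* differ when *Smarca4* is floxed in endothelium.

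The series holds 24 RNA-seq libraries made from liver at E12.5, of which 12 are of CD146+ cells (liver sinusoidal endothelial cells, LSECs) and 12 of the unselected remainder (non-EC cells). Each fraction held 4 genotypes with 3 replicates each. Controls were littermates labelled Cre-, which carry floxed alleles without the recombinase. All mutants carried VE-cadherin-Cre. *Chd4-ECko* embryos were fl/fl for *Chd4* and fl/+ for *Brg1*, *Brg1-ECko* embryos were fl/fl for *Brg1* and fl/+ for *Chd4*, and *Brg1/Chd4-ECdko* embryos were fl/fl for both genes. Both single mutants thus had a floxed allele of the other gene as well, and both cell fractions came from the same genotypes. VE-cadherin-Cre is driven by an endothelial promoter, and the paper states that some blood cells of fetal liver at a later stage also have its activity. A non-EC library of a mutant may therefore hold some deleted cells, which was not measured here. The embryos had a mixed background, and males and females were pooled.

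SWI/SNF complexes use the energy of ATP to move or evict nucleosomes. BRG1 and BRM are alternative ATPases, and a complex holds one or the other. SMARCB1, the SMARCC pair and a SMARCD protein form the core on which the ATPase assembles, ARID1A or ARID1B marks the canonical BAF form, and PBRM1 marks the PBAF form together with ARID2, BRD7 and PHF10. BRG1 in endothelium is known for its part in vascular development and in the regulation of fetal vessel genes. On the GRCm39 assembly *Smarca4* lies on chr9:21527398-21615526 (plus strand) and *Smarca2* on chr19:26582450-26755722 (plus strand). *Smarcb1* lies on chr10:75732602-75757456 (minus) and *Pbrm1* on chr14:30741081-30844178 (plus). *Smarcc1* lies on chr9:109946776-110069252 (plus) and *Smarcc2* on chr10:128294424-128326456 (plus). *Smarcd1* lies on chr15:99599991-99611876 (plus) and *Smarcd2* on chr11:106151119-106163906 (minus). *Arid1a* lies on chr4:133406304-133484080 (minus) and *Arid1b* on chr17:5044607-5397931 (plus). The values are for whole genes and do not separate their transcripts.

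Paralog levels can be set side by side only if reads can be told apart, so the annotated transcripts of each pair were compared first. The longest run of bases that any annotated transcripts of *Smarca4* and *Smarca2* share is 20 bases, on chr9:21547041-21547060 and chr19:26608285-26608304, each within 1 coding exon. The run is 26 bases for *Smarcc1* and *Smarcc2* (chr9:110042637-110042662 and chr10:128321489-128321514) and 18 bases for *Smarcd1* and *Smarcd2* (chr15:99610096-99610113 and chr11:106155049-106155066, minus strand), also within single coding exons. For *Arid1a* and *Arid1b* it is 29 bases and lies at least partly outside the coding sequence. No run of 150 bases, the read length, is shared within any of the 4 pairs. The shared runs are shown in capitals with 20 bases of each transcript on either side.
Smarca4: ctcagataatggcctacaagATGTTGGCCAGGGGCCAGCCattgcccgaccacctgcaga
Smarca2: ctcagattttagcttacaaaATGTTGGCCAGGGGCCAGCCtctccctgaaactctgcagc
Smarcc1: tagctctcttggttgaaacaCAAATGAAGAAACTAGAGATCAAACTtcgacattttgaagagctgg
Smarcc2: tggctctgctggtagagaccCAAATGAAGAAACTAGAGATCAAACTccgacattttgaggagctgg
Smarcd1: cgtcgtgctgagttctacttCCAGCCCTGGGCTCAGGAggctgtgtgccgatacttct
Smarcd2: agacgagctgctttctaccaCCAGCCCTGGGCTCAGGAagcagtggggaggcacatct
The capitals thus mark the longest stretch that reads of a pair could have in common without a mismatch.

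Values are TPM (a relative transcript abundance), which are corrected for gene length and scaled to the same total in every library, so that levels can be compared between genes but the reads behind a value are unknown. Fold differences below are on log2(TPM + 1) and come from limma. A gene is called when its p-value, adjusted over all genes tested, is under 0.05. The labelled cell types were checked by their markers. All 8 endothelial markers were higher in every LSEC library than in every non-EC library, with a summed level of 857 to 1790 TPM against 25.8 to 59.7 TPM, and none was at 0 in either fraction. All 4 mesenchymal markers also separated the fractions, at 387 to 606 TPM in LSEC libraries and 10.9 to 38.4 TPM in non-EC libraries. Summed hepatoblast markers reached 25515 TPM in LSEC *Brg1-ECko* replicate 1, against 3027 TPM in the lowest LSEC library. Mitochondrial genes took 13.9% to 31.5% of LSEC TPM and 2.33% to 7.69% of non-EC TPM. In bulk RNA, fewer cells of a type and less RNA per cell cannot be told apart.

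Of the members, *Smarca2* (BRM) differed most between the fractions. It was 5.46 times as high in LSECs as in non-EC cells by the ratio of mean TPM. Over 12 LSEC libraries it ranged from 29.8 TPM through a median of 40.3 TPM to 49.8 TPM, and over 12 non-EC libraries from 3.25 TPM through 7.68 TPM to 9.11 TPM. Every LSEC library lay above every non-EC library. The log2 difference was 2.32 (SE 0.11, adjusted p = 2.28e-14). Within genotypes the ratio of means was 5.97 for controls, 6.55 for *Chd4-ECko*, 4.63 for *Brg1-ECko* and 5.06 for the double mutant. *Smarca4* (BRG1) was the most abundant member in both fractions. It ranged from 99.9 TPM through a median of 137 TPM to 161 TPM in LSECs and from 160.7 TPM through 169.7 TPM to 189 TPM in non-EC cells. The highest LSEC library of *Smarca4* (160.6 TPM) lay just below the lowest non-EC library, so the ranges did not overlap, and the log2 difference was -0.37 (SE 0.07, adjusted p = 3.10e-05). That difference was not called after quantile normalization (-0.06, adjusted p = 0.447) or with mitochondrial genes left out (-0.11, adjusted p = 0.164), whereas *Smarca2* was called under every alternative, between 2.18 and 2.59. Mesenchymal markers were high beside endothelial markers in the LSEC fraction, and the part of each cell type in the *Smarca2* level was not tested.

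Of the 10 members, 9 were called between the fractions over 4 genotypes, where 82.6% of all 13775 genes tested were called, so that a call by itself says little about these genes. *Smarca2*, *Smarcd1*, *Arid1b* and *Pbrm1* were higher in LSECs. *Smarca4*, *Smarcb1*, *Smarcc1*, *Smarcd2* and *Arid1a* were lower. The median log2 difference was -0.07 over the members, -0.07 over the other subunits and -0.0017 over all genes. *Smarca2*, *Smarca4* and *Smarcd2* did not overlap between the fractions, as 37.7% of all genes did not. Of the members only *Smarca2* was called with a log2 difference above 1 (29% of all genes were). In controls alone 6 members were called, against 67.1% of all genes, and only *Smarca2* with the fold threshold, against 32.7% (*Smarca2* and *Smarcd1* higher, *Smarca4*, *Smarcc1*, *Smarcd2* and *Arid1a* lower). The scale matters for the small differences. The median over all genes was -0.14 after quantile normalization, -0.15 after median centring and 0.24 without mitochondrial genes. The share of calls that were higher in LSECs went from 50.1% to 63.3% without mitochondrial genes. It went to 42.6% after quantile normalization and to 43.3% after median centring.

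**Figure D1:**
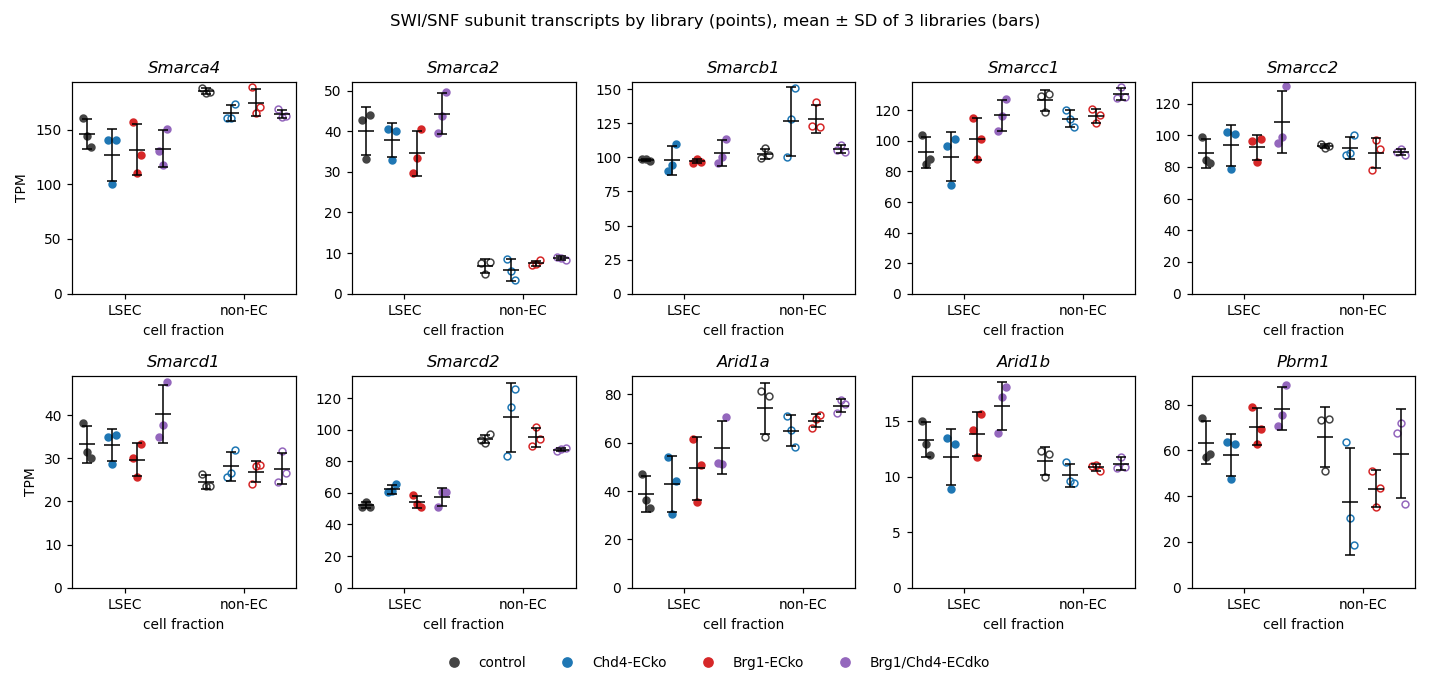
TPM of the 10 subunits in each library (points; filled for LSEC, open for non-EC; colours give the genotype), with the mean and SD of 3 libraries as bars, on linear axes that start at 0. *Smarca2* lies between 29.8 and 49.8 TPM in LSECs and between 3.25 and 9.11 TPM in non-EC cells, while the other 9 genes differ less.

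Among the core subunits, *Smarcd2*, one of 3 alternative SMARCD genes, was lower in LSECs in every scaling. It ranged from 50.9 TPM through 56.6 TPM to 65.7 TPM in LSECs and from 83.7 TPM through 92.6 TPM to 126 TPM in non-EC cells, with no overlap. Its log2 difference was -0.75 (SE 0.06, adjusted p = 1.16e-10) and lay between -0.90 and -0.49 over the alternatives. *Smarcd1* was higher in LSECs (median 34.2 TPM against 26.5 TPM, log2 difference 0.32, adjusted p = 0.000262), with overlapping ranges. The scaffold gene *Smarcc1* (median 101 TPM in LSECs and 121 TPM in non-EC cells, log2 difference -0.30) lost its call after quantile normalization and without mitochondrial genes. *Smarcb1* (median 97.8 TPM and 108 TPM, -0.21) changed sign under the same alternatives, at 0.03 and 0.04. *Smarcc2* (median 97.0 TPM and 91.3 TPM, 0.06, 95% interval -0.07 to 0.19) was not called, but was called higher in LSECs under both, at 0.29 and 0.32. For *Smarca4*, *Smarcb1*, *Smarcc1* and *Smarcc2* the fractions thus could not be ordered apart from the choice of scale.

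The ARID1 pair, which marks canonical BAF, differed between the fractions in opposite directions. *Arid1a*, the more abundant of the pair in every group, was lower in LSECs: 30.7 TPM through 49.0 TPM to 70.5 TPM, against 58.3 TPM through 71.2 TPM to 81.3 TPM in non-EC cells. The 2 highest LSEC libraries (61.7 and 70.5 TPM) overlapped the non-EC range. Its log2 difference was -0.61 (SE 0.10, adjusted p = 7.14e-06) and stayed called (-0.76 to -0.36) in every alternative other than the fold threshold. *Arid1b* was higher in LSECs, with a median of 13.7 TPM against 10.9 TPM (0.31, adjusted p = 0.000849), and its call was lost after quantile normalization (0.11, adjusted p = 0.0902). *Pbrm1* had a median of 66.6 TPM in LSECs and 51.0 TPM in non-EC cells (0.47, adjusted p = 0.00713). In controls *Pbrm1* did not show this difference, at 63.4 ± 9.41 TPM in LSECs and 66.1 ± 13.1 TPM in non-EC cells (SD, n = 3; log2 difference -0.05, 95% interval -0.68 to 0.58).

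**Figure D2:**
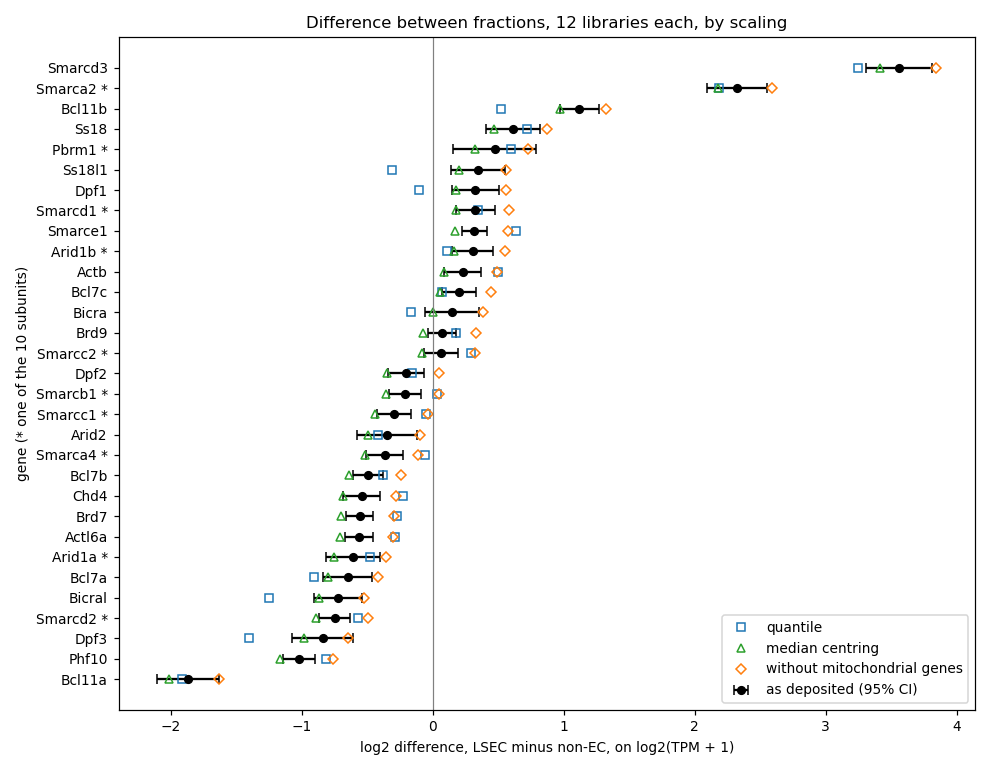
Difference between fractions for the 10 subunits (asterisks), the other subunits tested and *Chd4*, as LSEC minus non-EC on log2(TPM + 1), with 12 libraries each. Black points carry 95% intervals for TPM as deposited and open symbols give 3 other scalings; *Smarcd3* and *Smarca2* are high and *Bcl11a* and *Phf10* low in all 4, while *Smarcb1*, *Smarcc1*, *Smarcc2* and *Smarca4* come close to or cross 0.

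Of the other subunits, 18 of 20 tested were called between the fractions over 4 genotypes (8 higher and 10 lower in LSECs, against 41.4% and 41.2% of all genes), and 4 passed the fold threshold as well. Of the 18, *Dpf1* and *Ss18l1* turned lower after quantile normalization (-0.11 and -0.31) and *Dpf2* turned to 0.05 without mitochondrial genes; these 3 are named because their direction rests on the scale. *Smarcd3*, the third SMARCD gene, ranged from 23.8 TPM through 34.5 TPM to 48.6 TPM in LSECs and from 0.88 TPM through 1.82 TPM to 4.31 TPM in non-EC cells (log2 difference 3.56, SE 0.12, adjusted p = 9.35e-17). The ratio of means was 16.3, and 10.95 to 30.5 within genotypes. *Bcl11b*, a zinc-finger subunit known from lymphoid and neural cells, was low everywhere but separated the fractions (1.39 ± 0.41 TPM against 0.087 ± 0.048 TPM, SD, n = 12; 1.12). *Bcl11b* reached at most 0.164 TPM in a non-EC library and passed the filter on low values only through LSEC libraries. The filter thus favoured its call and its separation in advance. *Bcl11a*, its paralog and a known repressor of fetal globin, was lower in LSECs (13.9 ± 3.73 TPM against 52.6 ± 10.3 TPM; -1.87). *Phf10*, a PHD-finger subunit of PBAF, was also lower (62.9 ± 9.19 TPM against 129 ± 17.3 TPM; -1.02). All 4 kept their direction and call in each scaling. *Bicral*, a subunit of the non-canonical form, and *Bcl7a* also passed the fold threshold in controls, but not over 4 genotypes, where *Bicral* was at -0.72 against -1.26 in controls. The shared subunit *Smarce1* was higher in LSECs (280 TPM against 224 TPM; 0.32), and the actin-like *Actl6a* (-0.56), *Brd7* (-0.56) and *Arid2* (-0.35) were lower. The last of these was not called without mitochondrial genes (-0.10, adjusted p = 0.435). *Brd9*, the bromodomain subunit of the non-canonical form, had 52.2 TPM and 49.6 TPM and was not called (0.07, 95% interval -0.04 to 0.18), although it was called higher after quantile normalization (0.18) and without mitochondrial genes (0.33). The neuronal subunit *Actl6b* was listed at 0 in all non-EC libraries and reached at most 0.076 TPM in LSECs.

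Subunit composition was described as the share of one gene in the summed TPM of a set of genes, which does not depend on the scaling of a library. The sets were paralogs, other than that of *Pbrm1*, which was summed with the ARID1 pair that marks another form of the complex. *Smarcd3* was not compared with the other SMARCD genes for shared runs. BRM made up 15.9% to 27.2% of the ATPase transcripts in LSECs (median 23.2%) and 1.83% to 5.21% in non-EC cells (median 4.14%). The share of *Smarcd3* among the SMARCD genes was 21.1% to 33.6% in LSECs and 0.73% to 3.40% in non-EC cells. *Smarcd2* made up 55.9% to 68.0% of the *Smarcd1* and *Smarcd2* sum in LSECs and 73.5% to 81.1% in non-EC cells. *Arid1b* took 18.7% to 26.7% of the ARID1 sum in LSECs and 12.6% to 14.2% in non-EC cells. *Smarcc2* took 45.6% to 52.5% of the SMARCC sum in LSECs and 39.3% to 47.9% in non-EC cells. *Pbrm1* took 48.6% to 57.0% of the sum of *Pbrm1*, *Arid1a* and *Arid1b* in LSECs, and 21.5% to 44.8% in non-EC cells. The share of *Smarcc2* was the only one of the 6 that overlapped between the fractions.

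**Figure D3:**
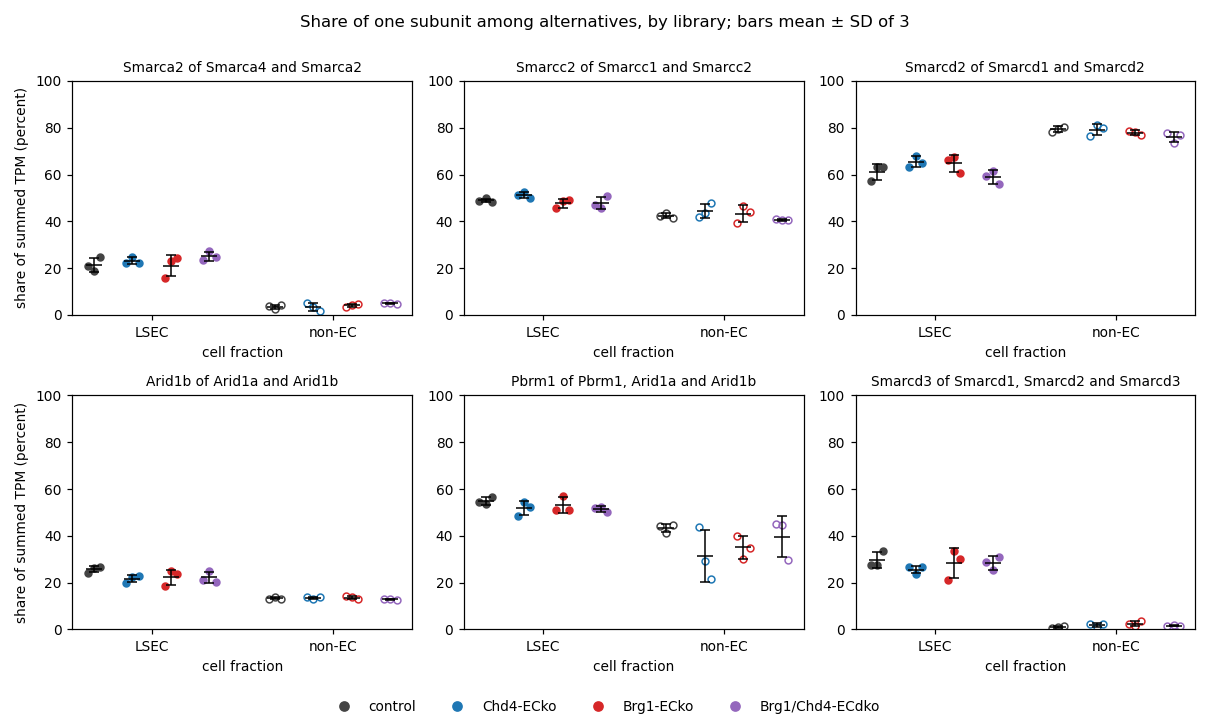
Share of one subunit in the summed TPM of the genes named above each panel, in percent from 0 to 100, for each library (points; filled for LSEC, open for non-EC) with the mean and SD of 3 as bars. The *Smarca2* share is 15.9% to 27.2% in LSECs and 1.83% to 5.21% in non-EC cells, and only the *Smarcc2* share overlaps between the fractions.

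The order of the levels was read within controls. In LSECs it ran from *Smarca4* (146 TPM) through *Smarcb1* (98.2 TPM), *Smarcc1* (92.4 TPM), *Smarcc2* (88.5 TPM), *Pbrm1* (63.4 TPM), *Smarcd2* (52.3 TPM), *Smarca2* (40.0 TPM), *Arid1a* (38.8 TPM) and *Smarcd1* (33.3 TPM) to *Arid1b* (13.3 TPM). The ranges of neighbours overlapped for *Smarcb1*, *Smarcc1* and *Smarcc2*, and for *Smarca2*, *Arid1a* and *Smarcd1*. In non-EC controls *Smarca4* again led (186 TPM) and *Smarca2* came last (6.69 TPM), below *Arid1b* (11.4 TPM) without overlap. The extremes of the members fell in few libraries. In LSECs 6 of the 10 members had their lowest value in *Chd4-ECko* replicate 2 and 8 had their highest in *Brg1/Chd4-ECdko* replicate 3, with summed TPM of 554 and 858. These libraries held the lowest value of 23.96% and the highest of 35.9% of all genes tested in LSECs. In non-EC cells *Chd4-ECko* replicate 3 held the lowest value of 5 members and the highest of 4, beside 30.2% and 19.8% of all genes. Mitochondrial genes took 20.4% and 13.9% of TPM in the LSEC libraries and 2.33% in the non-EC library, and their part was not tested.

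Genotypes were then compared within LSECs. *Smarca4*, the floxed gene, stood at 161, 144 and 134 TPM in control libraries. It stood at 157, 111 and 127 TPM in *Brg1-ECko*, at 141, 99.9 and 140.4 TPM in *Chd4-ECko*, and at 130.5, 117 and 151 TPM in the double mutant. The groups overlapped throughout. The log2 difference from controls was -0.16 in *Brg1-ECko* (95% interval -0.52 to 0.20, adjusted p = 0.779) and -0.14 in *Brg1/Chd4-ECdko* (-0.50 to 0.22, adjusted p = 0.704). In *Chd4-ECko*, which is fl/+ for *Brg1*, it was -0.22 (-0.57 to 0.14), and it was not called there either. Whole-gene TPM also count transcripts from which just the floxed exons are missing, and exon-level reads were not analysed here, so these values do not measure the deletion. *Chd4*, the other floxed gene, had 262 ± 20.1 TPM in controls, 215 ± 42.5 TPM in *Chd4-ECko* and 249 ± 6.95 TPM in *Brg1/Chd4-ECdko* (SD, n = 3) and was not called either.

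*Smarca2* was not higher in LSECs of either *Brg1* mutant beyond the spread between libraries. Control libraries had 42.7, 33.2 and 44.0 TPM, *Brg1-ECko* libraries 29.8, 33.3 and 40.6 TPM, double mutant libraries 39.6, 43.7 and 49.8 TPM, and *Chd4-ECko* libraries 40.5, 33.0 and 40.2 TPM. All 4 groups overlapped. The log2 difference from controls was -0.21 in *Brg1-ECko* (95% interval -0.54 to 0.13, adjusted p = 0.697; -0.33 to -0.11 over the alternatives), 0.15 in *Brg1/Chd4-ECdko* (-0.19 to 0.49, adjusted p = 0.664; -0.03 to 0.23 over the alternatives) and -0.07 in *Chd4-ECko* (-0.41 to 0.27). The intervals therefore reach to increases of 0.13 for *Brg1-ECko* and 0.49 for the double mutant on the log2 scale. The BRM share of ATPase transcripts was 21.5% ± 3.00 in controls, 23.1% ± 1.47 in *Chd4-ECko*, 21.1% ± 4.49 in *Brg1-ECko*, and 25.1% ± 1.95 for the double mutant (SD, n = 3). *Brg1-ECko* replicate 1, the library with the highest hepatoblast markers, had the lowest *Smarca2* level and the lowest share among LSEC libraries (29.8 TPM and 15.9%), and the part of those cells in it was not tested.

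None of the 10 members was called by limma between LSEC genotypes. In *Chd4-ECko* against control the count was 0 of 10, with 0.707% of all 13444 genes called, and 1 member (*Smarcd2*) had an unadjusted p under 0.05, as 6.49% of all genes did. In *Brg1-ECko* against control it was 0 (0.0223% of all genes) with 0 at an unadjusted p under 0.05 (9.68% of all genes). In *Brg1/Chd4-ECdko* against control it was 0 (0.87% of all genes) with 2 unadjusted, *Smarcc1* and *Arid1a* (12.1% of all genes). Against *Chd4-ECko* the double mutant had 0 called (0.0372% of all genes) and 3 unadjusted, *Smarcc1*, *Arid1b* and *Pbrm1* (10.4% of all genes). Against *Brg1-ECko* it had 0 called (0.0967% of all genes) and 2 unadjusted, *Smarca2* and *Smarcd1* (6.1% of all genes). The comparisons share groups and are not independent of each other. In *Brg1/Chd4-ECdko* LSECs 9 of 10 members lay above controls in the fit, with a median of 0.27 against 0.16 over all genes, and the median over all genes was -0.0035 after quantile normalization and -0.03 after median centring. *Arid1a* had the widest difference there, with 51.7, 51.4 and 70.5 TPM against 47.2, 36.4 and 32.8 TPM in controls (0.56, 95% interval 0.07 to 1.06, adjusted p = 0.353). The groups did not overlap for *Arid1a* and *Smarcc1*, as for 23.1% of all genes in that comparison. Of the other subunits 0 of 20 were called in any LSEC comparison, and between 1 and 4 had an unadjusted p under 0.05.

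**Figure D4:**
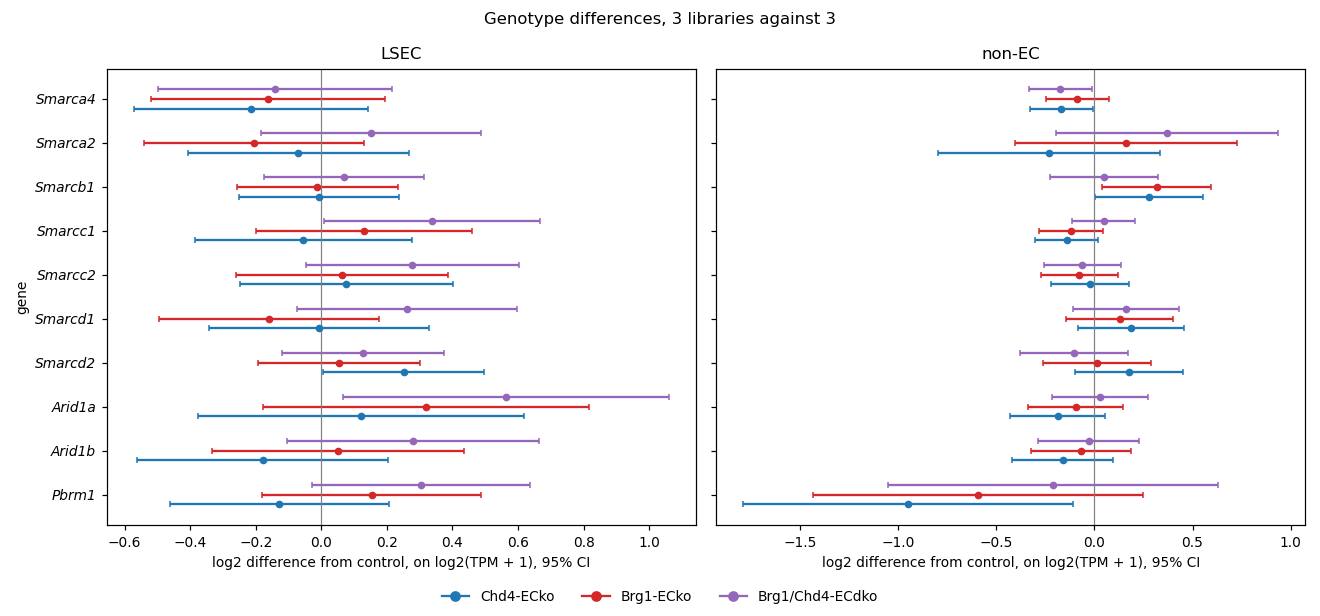
Difference of each mutant from control for the 10 subunits, on log2(TPM + 1), in LSECs (left) and non-EC cells (right), with 95% intervals from limma and 3 libraries against 3; the axes of the panels differ. No difference was called after adjustment over all genes, and the widest intervals belong to *Pbrm1* in non-EC cells.

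In non-EC cells no member was called between genotypes by limma either. More genes were called overall than in LSECs for each single mutant against control, and fewer in the comparisons with the double mutant. The count was 0 of 10 in *Chd4-ECko* against control (9.48% of all 12223 genes) and *Smarca4*, *Smarcb1* and *Pbrm1* had an unadjusted p under 0.05, as 33.9% of all genes did. It was 0 in *Brg1-ECko* against control (11.7% of all genes), with *Smarcb1* unadjusted (28% of all genes). It was 0 in *Brg1/Chd4-ECdko* against control (0.581% of all genes), with *Smarca4* unadjusted (11.7% of all genes). Between the double mutant and *Chd4-ECko* 0 members and 0% of all genes were called, with 3 members and 21.8% of all genes unadjusted. Without non-EC *Chd4-ECko* replicate 1, 5 members were called there: *Smarca2* (0.89, adjusted p = 0.0126), *Pbrm1* (1.20, adjusted p = 0.0139), *Smarcc1* (0.22), *Smarcb1* (-0.39) and *Smarcd2* (-0.45). In that fit 32.4% of all genes were called. Between the double mutant and *Brg1-ECko* 0 members and 0% of all genes were called, with 1 member and 12.7% of all genes unadjusted. These comparisons share control or mutant libraries too. The median over the members against control was -0.15 for *Chd4-ECko*, -0.07 for *Brg1-ECko* and -0.00016 for the double mutant, beside 0.0054, 0.02 and 0.01 over all genes. *Smarca4* had 189, 183 and 185 TPM in control libraries and 169, 162 and 163 TPM in libraries of the double mutant, which did not overlap. Its log2 difference in the double mutant was -0.17 (95% interval -0.33 to -0.01, adjusted p = 0.361). In *Chd4-ECko* it had 161, 160.7 and 174 TPM, also without overlap with controls, as for 27.4% of all genes (-0.17, adjusted p = 0.131). In *Brg1-ECko* it had 189, 165 and 171 TPM and overlapped controls (-0.09, adjusted p = 0.444). *Smarca2* had 6.69 ± 1.72 TPM in controls, 7.46 ± 0.62 TPM in *Brg1-ECko*, 5.79 ± 2.68 TPM in *Chd4-ECko* and 8.77 ± 0.41 TPM in the double mutant (SD, n = 3). All 3 double mutant libraries of *Smarca2* lay above the controls (9.11, 8.88 and 8.32 TPM against 7.47, 4.72 and 7.88 TPM; 0.37, 95% interval -0.20 to 0.94, adjusted p = 0.702). The groups did not overlap for 4 of 10 members in that comparison, and for 24% of all genes. *Smarcb1* had 99.7, 107 and 102 TPM in controls and 123, 140 (140.4) and 122 TPM in *Brg1-ECko*. These groups did not overlap, as for 39.9% of all genes, and the difference of 0.32 was called only when the 2 groups were fitted alone (adjusted p = 0.126 with all genotypes and 0.0386 alone). In the fit of the 2 groups alone 17.4% of all genes were called.

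*Pbrm1* varied most among the members in non-EC cells, by 3.97 times between its lowest and highest library. It had 73.5, 51.0 and 73.8 TPM in controls, 51.1, 35.2 and 43.7 TPM in *Brg1-ECko*, 67.6, 71.8 and 36.4 TPM in the double mutant, and 63.8, 30.7 and 18.6 TPM in *Chd4-ECko*. Low values thus occurred in 1 or more libraries of each mutant. The difference from controls was -0.95 in *Chd4-ECko* (95% interval -1.79 to -0.11, adjusted p = 0.110) and -0.59 in *Brg1-ECko* (-1.43 to 0.25, adjusted p = 0.327). *Chd4-ECko* replicates 2 and 3 stood apart from replicate 1, with 3.43% and 2.33% of TPM from mitochondrial genes against 7.37%, and the part of this difference in *Pbrm1* was not tested. Without *Chd4-ECko* replicate 1, *Pbrm1* (-1.41, adjusted p = 0.00539), *Smarcb1* (0.44, adjusted p = 0.00491) and *Smarcd2* (0.35, adjusted p = 0.00655) were called against control, where 37.7% of all genes were called in the same fit, so the counts of 0 for *Chd4-ECko* non-EC cells rest on that library.

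Some of the other subunits were called in non-EC cells of the single mutants. In *Brg1-ECko* 4 of 19 tested were called, all lower (2.76% of all genes were called lower there and 3.31% in *Chd4-ECko*). *Bcl11a* had 68.6, 67.9 and 68.1 TPM in controls and 38.7, 44.1 and 46.3 TPM in *Brg1-ECko* (-0.66, adjusted p = 0.00231). *Phf10* had 143, 153 and 144 TPM in controls and 95.2, 111 and 109 TPM in *Brg1-ECko* (-0.48, adjusted p = 0.00311). The bromodomain gene *Brd7* went from 190 ± 5.05 TPM (189.5) to 143 ± 6.04 TPM (-0.41, adjusted p = 0.00778). *Bcl7a* went from 17.2 ± 1.89 TPM to 11.9 ± 1.84 TPM (-0.51, adjusted p = 0.0296), and its call was lost when control replicate 1 or 3 or *Brg1-ECko* replicate 1 or 2 was left out. With the 2 groups fitted alone *Bcl7a* was not called (adjusted p = 0.0529), and *Arid2*, the ARID subunit of PBAF, was (-0.52, adjusted p = 0.0298). *Bicral* was called after quantile normalization (-0.44, adjusted p = 0.0304), and *Smarcd3* was called higher without *Brg1-ECko* replicate 2 (1.08, adjusted p = 0.0300). In *Chd4-ECko* 2 of 19 were called, both lower. That share is near the 9.48% of all genes called in either direction, while 3.31% were called lower. In that comparison 7 of 19 had an unadjusted p under 0.05 where 33.9% of all genes did. The 2 were *Bcl11a* (-0.49, adjusted p = 0.0139, and 0.0735 with the 2 groups alone) and *Brd7* (-0.28, adjusted p = 0.0489). *Brd7* there lost its call without any 1 of 5 libraries, all but *Chd4-ECko* replicate 1, and after median centring (adjusted p = 0.177). It also lost its call with the replicate number as a block (adjusted p = 0.0510), without a variance trend (0.0750) and with no filter on low values (0.0557). *Arid2* was called there after median centring (-0.58, adjusted p = 0.0388) and quantile normalization (-0.56, adjusted p = 0.0437), *Phf10* was called without mitochondrial genes (-0.29, adjusted p = 0.0431), and 0 of the other subunits were called with the 2 groups alone. Without *Chd4-ECko* replicate 1 the count was 9 of 19, with 37.7% of all genes called. In *Brg1/Chd4-ECdko* 0 of 19 were called, with *Bcl11a* at 47.7, 56.3 and 48.3 TPM (-0.42, adjusted p = 0.0682) and 1 at an unadjusted p under 0.05. In the fits of all libraries with the main settings, none of the called changes exceeded 1 in size on the log2 scale. Summed hepatoblast markers rose beside them, from 15676 to 17497 TPM in control libraries to 22728 to 33603 TPM in *Brg1-ECko* and 23277 to 32233 TPM in *Chd4-ECko*. Summed myeloid markers (187 to 376 TPM in controls, 299 to 372 TPM in *Brg1-ECko* and 261 to 371 TPM in *Chd4-ECko*) and megakaryocyte markers (758 to 1180 TPM, 769 to 1638 TPM and 632 to 1236 TPM) overlapped between these groups. The part of cell composition in the lower subunit levels was not tested.

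**Figure D5:**
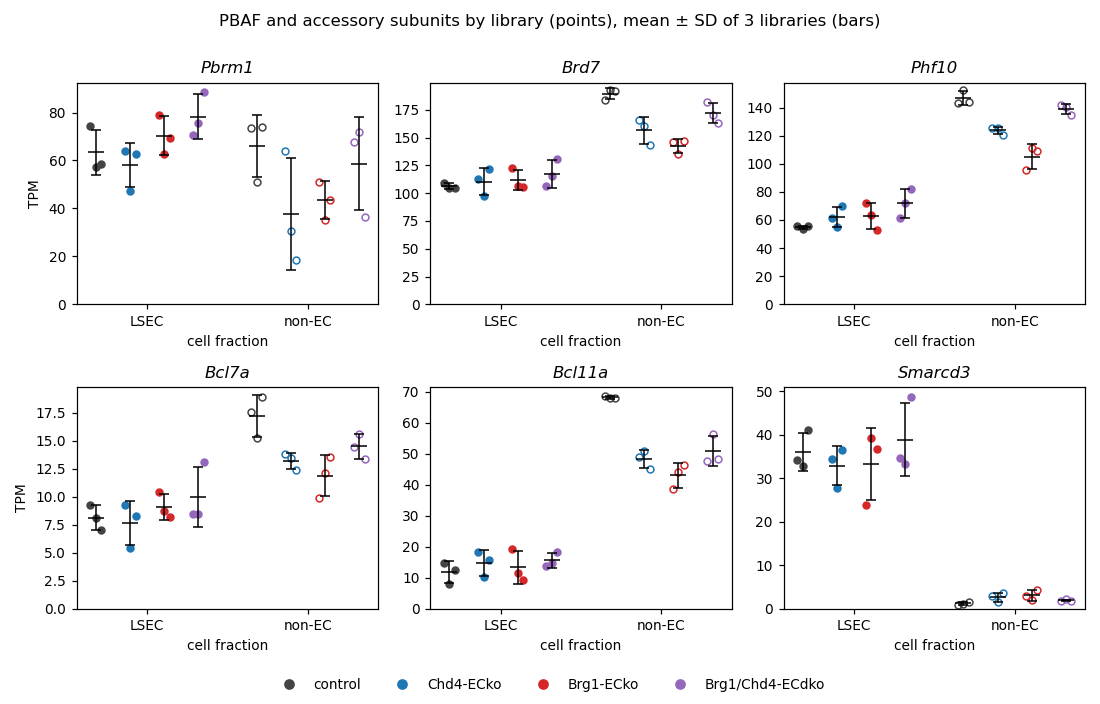
TPM of *Pbrm1* and 5 other subunits in each library (points; filled for LSEC, open for non-EC; colours give the genotype) with the mean and SD of 3 as bars, on linear axes from 0. *Bcl11a* and *Phf10* lie lower in every mutant non-EC library, whatever the genotype, than in any non-EC control. Such separation from non-EC controls, in either direction, held for 39.9% of all genes for *Brg1-ECko* and 24% for the double mutant. *Smarcd3* is high only in LSECs, and *Pbrm1* is scattered in non-EC mutants.

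Whether a genotype effect differed between the fractions was tested with an interaction term. None of the 10 members was called by limma in *Chd4-ECko* (1.02% of all 13775 genes), *Brg1-ECko* (1.04%) or *Brg1/Chd4-ECdko* (0.0581%), and 0 had an unadjusted p under 0.05 in any of the 3, against 19.1%, 17.9% and 7.57% of all genes. For *Smarca2* the difference of effects was -0.37 for *Brg1-ECko* (95% interval -1.01 to 0.27) and -0.22 for the double mutant (-0.86 to 0.42). *Pbrm1* had the largest one among the members, 0.82 in *Chd4-ECko* (-0.07 to 1.71, adjusted p = 0.300). Without non-EC *Chd4-ECko* replicate 1, *Pbrm1* (1.28, adjusted p = 0.0167) and *Smarcb1* (-0.44, adjusted p = 0.0405) were called there, beside 13.9% of all genes. Of the other subunits 0 of 20 were called, with 6, 7 and 4 at an unadjusted p under 0.05. *Phf10* in *Brg1-ECko* came nearest (0.66, 95% interval 0.32 to 1.00, adjusted p = 0.0511) and was on the other side of the threshold under 6 alternatives, including all 3 other scalings (adjusted p = 0.0171 to 0.0477 in these 6).

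The genes whose levels followed the ATPases most closely were picked over the 12 LSEC libraries among 8455 genes with a mean of at least 10 TPM. For *Smarca2* they were *Tro* (Pearson r = 0.97, Spearman rho = 0.80), *Sox4* (0.96 and 0.94) and *Mex3b* (0.96 and 0.90). For *Smarca4* they were *Tmem64* (0.87 and 0.89), *Aebp1* (0.84 and 0.78) and *Asap1* (0.84 and 0.87). Without the 2 libraries farthest from the median of the ATPase, r was 0.91 to 0.95 for the *Smarca2* genes and 0.57 to 0.75 for the *Smarca4* genes. These are the highest values among many, given as a description without a p-value, and the points share the 4 genotypes and the composition of each library.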

How the data were processed

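RNA of LSEC and non-EC fractions of E12.5 liver was used, 24 libraries in 8 groups of 3. The authors digested livers with transcription inhibitors, selected CD146+ cells on beads, sequenced poly-A RNA, trimmed repeated guanines and used CLC Genomics Workbench for alignment to GRCm39/mm39. The deposited unit is TPM for each gene. The annotation, software version and treatment of reads with several matches are not given in the sources used here. TPM of every library sum to the same total. The methods give a nominal sequencing depth common to all libraries, but the reads behind each value are unknown and no interval of counting error could be given. The authors' 8 columns of group means were not used, and 0 columns lay outside the design.

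The 10 members and the lists were chosen with earlier results of these data known. The named genes are the members, *Chd4*, other subunits called between genotypes or past a log2 difference of 1 between fractions, *Arid2*, *Brd7*, *Brd9*, *Smarce1*, *Actl6a*, and the 3 genes most like each ATPase. The list of other subunits had *Arid2*, *Brd7*, *Brd9*, *Phf10*, *Dpf1*, *Dpf2*, *Dpf3*, *Smarcd3*, *Smarce1*, *Actl6a*, *Actl6b*, *Actb*, *Bcl7a*, *Bcl7b*, *Bcl7c*, *Ss18*, *Ss18l1*, *Bicra*, *Bicral*, *Bcl11a* and *Bcl11b*. Summed markers were *Cdh5*, *Pecam1*, *Kdr*, *Stab2*, *Lyve1*, *Mcam*, *Tek* and *Erg* (endothelial), *Des*, *Pdgfrb*, *Col1a1* and *Dcn* (mesenchymal), *Ptprc*, *Csf1r*, *C1qa*, *Cx3cr1*, *Fcgr3*, *Spi1*, *Adgre1* and *Lyz2* (myeloid), *Pf4*, *Itga2b*, *Gp9* and *Ppbp* (megakaryocyte), and *Afp*, *Alb*, *Dlk1*, *Hnf4a*, *Ttr* and *Apoa1* (hepatoblast). The sum of another marker list is not reported here.

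limma 3.58.1 in R 4.3.3 was fitted to log2(TPM + 1), with one mean per genotype in the 12 libraries of each fraction and one per group in all 24, variances moderated with a trend, and genes of at least 1 TPM in at least 3 libraries. Tests are two-sided with Benjamini-Hochberg adjustment over all genes. Folds on this scale understate changes of low genes. Replicates are embryos by the methods, but whether a number marks an embryo or litter is not in the labels. LSEC and non-EC libraries with the same genotype and number deviated together (12 of 12 correlations over 0.1, mean 0.270), so the pair was used as a block in an alternative. Positions and transcripts came from GENCODE on GRCm39, matched by Ensembl identifier. Tables and figures used python 3.11.15, pandas 2.3.3, numpy 2.4.6 and matplotlib 3.10.9. Alternatives were a pseudocount of 0.1 TPM, no filter, a filter at a mean of 5 TPM, scaling by quantiles or by medians, no mitochondrial genes, no trend, the replicate or pair block, the 2 groups alone, the fold threshold, and each library left out.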

Additional observations from a re-analysis of the deposited data

How the results depend on the processing

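The reads behind each value are unknown, and 3 libraries a group limit what can be called. Counts of called members between LSEC genotypes stayed at 0 in every alternative run. With the 2 groups alone, 1 member (*Smarcb1*) was called in non-EC *Brg1-ECko* against control, where 17.4% of all genes were called. In the same setting 0 other subunits were called in non-EC *Chd4-ECko* against control. With the fold threshold, 1 member was called between fractions (4 genotypes and controls alike) and 4 and 6 other subunits, while 0 other subunits remained called in non-EC *Chd4-ECko* and *Brg1-ECko*. Of all genes 29% and 32.7% were called between fractions with that threshold. In non-EC *Chd4-ECko* and *Brg1-ECko* it was 0.884% and 1.37%. Leaving out 1 library gave 0 to 3 members and 1 to 9 other subunits in non-EC *Chd4-ECko* against control, 0 to 5 of each in *Brg1/Chd4-ECdko* against *Chd4-ECko*, 0 to 2 of each for the interaction of *Chd4-ECko*, and 0 to 1 other subunits for that of *Brg1-ECko*. The upper ends came without non-EC *Chd4-ECko* replicate 1, where 37.7%, 32.4% and 13.9% of all genes were called against 9.48%, 0% and 1.02% with it, and without LSEC *Brg1-ECko* replicate 3 in the last (2.37% against 1.04%).

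Other subunits called in non-EC *Chd4-ECko* were 1 with no filter, without a trend and with the replicate block, against 2. After median centring the count stayed at 2, but *Arid2* was called and *Brd7* was not, and it was 3 after quantile normalization (*Arid2*) and without mitochondrial genes (*Phf10*). Over all genes 1830 were called after median centring, 1910 after quantile normalization and 922 without mitochondrial genes, against 1159. The interaction of *Brg1-ECko* had 1 (*Phf10*) with the pseudocount of 0.1, the mean filter and without mitochondrial genes, and 2 (*Phf10* and *Bicral*) after quantile normalization and median centring, against 0. Over all genes 1.22% were called with that pseudocount, 1.79% with the mean filter and 1.56% without mitochondrial genes. The share was 2.94% after quantile normalization and 4.14% after median centring, against 1.04% with the main settings. *Smarcb1* between fractions reversed to 0.030 (quantile) and 0.044 (no mitochondrial genes) over 4 genotypes and to 0.22 in controls (quantile), where *Smarca4* reversed to 0.014. The *Smarca4* difference in controls lost its call without LSEC control replicate 2 or 3 or non-EC control replicate 1 or 3, and *Smarcd1* without LSEC control replicate 1. The cause of these shifts was not tested. Among named genes not called, 221 of 4853 alternative values had the opposite sign.

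Within a fraction the replicate number was not taken as a pairing: 13 of 18 same-numbered pairs of LSEC libraries and 10 of 18 of non-EC libraries correlated above 0.1, and 10 and 6 of 12 libraries correlated best with their own number. With the replicate block 0 members were called between genotypes in either fraction, *Brd7* in non-EC *Chd4-ECko* had an adjusted p of 0.0510, and *Smarcd3* in non-EC *Brg1-ECko* was called (0.86, adjusted p = 0.0349; 0.0586 without the block). With the pair block 9 and 6 members were called between fractions and 0 in the interactions, as without it. Of all genes 84% and 69.6% were called between fractions with that block. In the interactions it was 0.951% for *Chd4-ECko*, 0.711% for *Brg1-ECko* and 0.0581% for the double mutant. The share of calls higher in non-EC *Brg1-ECko* went from 76.4% to 64.5% after quantile normalization, and in LSEC *Brg1/Chd4-ECdko* from 86.3% to 58.1% after median centring.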
